A study of Homo sapiens with 3 samples.

Results

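EMP1, MUC13, CSTA and GSG1 are genes of membrane and epithelial surface proteins, or of proteins found in surface epithelium, that stood far above vehicle after BAS treatment of H446 cells. They are described here beside their relatives EMP2, EMP3, PMP22, MUC1 and CSTB. The 9 genes were taken by symbol from the 16793 symbols with values, and each of the 9 had a value in every library. EMP1, MUC13, CSTA and GSG1 were picked because their values were high after treatment, and the others because they belong to the same families. The differences of the picked genes are therefore a description, with no test.

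H446 is an established human line of small cell lung cancer. BAS is 3-bromoascochlorin, a bromine-carrying relative of ascochlorin, which fungi make, and the study's title names its antitumor effects and the MAPK pathway. The cells were kept in serum-containing medium and received vehicle, 5 µM BAS or 10 µM BAS for 48 h before RNA was taken from the bulk culture. Each group had 1 library, 3 in all, from a single cell line. No difference can be set against a spread between replicates, and no p-value is given. In the headers the treated libraries are coded ASB85 and ASB810, and their doses were taken from the sample labels. Values are FPKM, fragments counted per transcript length and per size of the library, so that levels can be set side by side between genes of different length. The read depth is unknown.

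The EMP genes and PMP22 encode small proteins that cross the membrane 4 times and share a fold with the claudins of tight junctions. EMP1 is known as a membrane protein of squamous and other epithelia, and PMP22 as a protein of peripheral myelin whose gene duplication causes an inherited neuropathy. MUC13 and MUC1 are mucins anchored in the apical membrane, MUC13 mainly in the gut. CSTA and CSTB encode stefin A and stefin B, which stay inside the cell and block the cysteine cathepsins, proteases of the lysosome. Stefin A is abundant in keratinocytes, where it is built into the cornified envelope.

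Promoter sequences in the RefSeq table (build GRCh38.p14) could be matched for 6 of the 9 genes, among them EMP1 and MUC13. CSTA, GSG1 and CSTB had no match, so their promoters were not searched. Their 250 bases before the start are shown because both genes stood above vehicle together and both windows hold an AP-1 motif, the site bound by FOS, JUN and related factors. The EMP1 window is chr12:13196476-13196725 on the plus strand and the MUC13 window chr3:124934752-124935001 on the minus strand. Capitals mark matches to TGANTCA, where N is any base (AP-1), and to TGACGTCA (the cAMP response element).
EMP1: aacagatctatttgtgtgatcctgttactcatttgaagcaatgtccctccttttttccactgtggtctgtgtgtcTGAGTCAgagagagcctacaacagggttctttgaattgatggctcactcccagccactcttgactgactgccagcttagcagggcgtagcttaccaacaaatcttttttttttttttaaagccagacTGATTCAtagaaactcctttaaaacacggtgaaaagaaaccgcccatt
MUC13: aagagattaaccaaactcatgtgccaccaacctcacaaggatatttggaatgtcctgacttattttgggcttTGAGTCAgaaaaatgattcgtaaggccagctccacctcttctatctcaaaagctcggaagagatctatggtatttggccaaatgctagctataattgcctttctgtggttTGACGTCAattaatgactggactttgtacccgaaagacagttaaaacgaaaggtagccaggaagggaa

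The EMP1 window holds 2 AP-1 matches, beginning 175 and 48 bases before the start. The MUC13 window holds 1 AP-1 match, 178 bases before the start, and 1 cAMP response element, 68 bases before it. Searched on both strands, TGANTCA was present in 6.57% of the 35116 windows of this length and TGACGTCA in 1.65%. Both motifs stood together in 18 windows (0.0513%), of which the MUC13 window is one, and the matches did not overlap. The windows of EMP2, EMP3, PMP22 and MUC1 held neither motif, and no window of the 6 genes held TGATGNAA, the core of the element read by ATF4 with C/EBP factors, which 3.14% of all windows held. GC content was 42.4% in the EMP1 window and 41.6% in the MUC13 window, against 77.2% for EMP2, 59.2% for each of the EMP3 windows, 66.0% for each of the MUC1 windows and 48.8% to 69.6% for PMP22. The motifs were chosen with the sequences and the expression values in view. A match describes the letters alone, and no binding was measured here.

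Each gene's values were put on the scale log2(FPKM + 1) and subtracted, for 11512 genes whose mean across the libraries reached 1 FPKM. The word called is used of genes that stood at least 1 above (higher) or below (lower) on that scale, which is 2-fold in FPKM + 1. For genes at a few FPKM the plain ratio is larger, and a gene can exceed 2-fold by plain ratio without being called. Of the 9 genes, 8 passed the filter, and MUC1 did not. EMP1, MUC13, CSTA and GSG1 were called higher at both doses, and 0 of the 8 were called lower. Among all genes, 0.539% were called higher and 0.208% lower at 5 µM, and 1.31% higher and 0.643% lower at 10 µM. Because the 4 genes were picked on these values, nothing is read from that count. The relatives EMP2, EMP3, PMP22 and CSTB lay between −0.09 and 0.49 at both doses. In bulk RNA, more cells that express a gene and more RNA per cell cannot be told apart.

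In order of level, EMP2, MUC13 and PMP22 stood lowest of the genes past the filter in the vehicle library, followed by GSG1, EMP1, CSTA, EMP3 and CSTB. Among all 16793 symbols, EMP1 stood at the 44.0 percentile of level with vehicle, the 70.4 percentile at 5 µM and the 78.9 percentile at 10 µM. MUC13 stood at the 32.8, 50.6 and 65.5 percentiles, GSG1 at the 34.9, 58.7 and 67.9 percentiles and CSTA at the 61.7, 85.1 and 89.6 percentiles. PMP22 stood at the 33.9, 38.2 and 36.7 percentiles and EMP2 at the 32.4, 31.2 and 32.5 percentiles, so that MUC13 was below PMP22 with vehicle and above it at both doses. At 10 µM CSTA came close to CSTB (92.3) and EMP3 (93.3).

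EMP1 was at 3.62 FPKM in the vehicle library, 15.21 FPKM in the 5 µM library and 23.50 FPKM in the 10 µM library. Its level was lowest with vehicle and highest at the higher dose, 4.20-fold and 6.49-fold over vehicle by plain ratio. On the log2(FPKM + 1) scale the differences were 1.81 and 2.41, each the 7th highest of all genes tested. Among the 3098 tested genes whose vehicle level was within 2-fold of that of EMP1, 1.71% were called higher at 10 µM, the median ratio to vehicle was 1.06, and EMP1 had the 4th highest ratio.

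The relatives of EMP1 covered a wide range of levels and none was called. EMP3, which carries a blood group antigen on red cells, was at 52.58 FPKM in the vehicle library, 70.84 FPKM in the 5 µM library and 68.92 FPKM in the 10 µM library. It was the highest of the family in every library, and its ratio to vehicle was 1.35 at 5 µM and 1.31 at 10 µM. Of all genes tested, 11.8% differed at least as far from vehicle as EMP3 at 5 µM and 23.2% at 10 µM. EMP3 overlaps CCDC114 on the opposite strand in GENCODE 29, and CCDC114 was at 0.26, 0.27 and 0.19 FPKM.

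PMP22 was at 1.31, 2.24 and 1.99 FPKM with vehicle, 5 µM and 10 µM. EMP2, known for controlling integrins at the surface of epithelial cells, was at 1.05, 0.93 and 1.19 FPKM. The EMP2 values lay on both sides of vehicle, with differences of −0.09 at 5 µM and 0.10 at 10 µM that 71.9% and 74.1% of the genes matched or passed. EMP1 was 3.45 times as high as EMP2 with vehicle, 16.4 times at 5 µM and 19.7 times at 10 µM, and relative to PMP22 it was 2.76, 6.79 and 11.8 times as high.

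Summed over the 4 genes, the family level was 58.56 FPKM in the vehicle library, 89.22 FPKM in the 5 µM library and 95.60 FPKM in the 10 µM library. The share of EMP1 in that sum was 6.18%, 17.0% and 24.6%, and that of EMP3 89.8%, 79.4% and 72.1%. EMP3 remained the main transcript of the family at both doses.

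**Figure D1:**
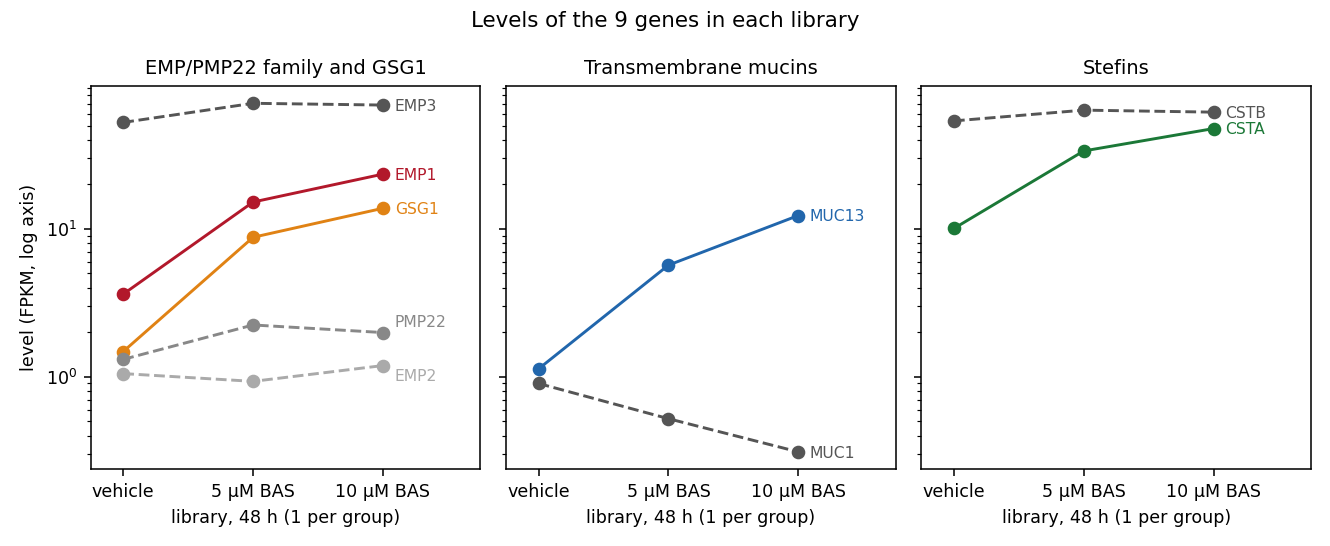
FPKM of each of the 9 genes (log axis) in the vehicle, 5 µM BAS and 10 µM BAS library, 1 library per group, with EMP1, GSG1, MUC13 and CSTA as solid coloured lines and their relatives as dashed grey lines. The solid lines climb at each dose, CSTA to 47.80 FPKM beside 61.71 FPKM for CSTB, while MUC1 runs the other way from MUC13.

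Of 18 further genes with the claudin fold or close to PMP22, 8 had values and 2 passed the filter, and 0 of these were called at either dose. Their median difference was 0.21 at 5 µM and 0.23 at 10 µM, against 0.02 and 0.05 over all genes, and 0.01 at both doses over the 8 genes without the filter. Called over all genes were 0.539% higher and 0.208% lower at 5 µM, and 1.31% and 0.643% at 10 µM. At such shares a short list with 0 called is usual, here and in the lists that follow. CLDND1 was at 31.15, 35.40 and 39.29 FPKM with vehicle, 5 µM and 10 µM. PERP, a p53-induced tetraspan protein of desmosomes, was at 13.74, 16.43 and 15.28 FPKM. The remaining 6 were under 1 FPKM on average, with 5 under 0.1 FPKM in every library. Of 13 genes of peripheral myelin and Schwann cells, the setting in which PMP22 is best known, 2 passed the filter and 0 were called. The nerve growth factor receptor gene NGFR was at 80.84, 95.86 and 103.96 FPKM and the growth cone gene GAP43 at 4.27, 5.35 and 5.87 FPKM. The myelin gene MBP was at 0.05 FPKM or lower in each library.

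GSG1 is a member of the same wider family, named for its expression in germ cells, and its relative GSG1L is a partner of AMPA-type glutamate receptors. It was at 1.48 FPKM in the vehicle library, 8.78 FPKM in the 5 µM library and 13.80 FPKM in the 10 µM library, 5.93-fold and 9.32-fold over vehicle. Both treated libraries stood above vehicle, the 10 µM library furthest. The differences of 1.98 and 2.58 were the 4th highest at 5 µM and the 5th highest at 10 µM. GSG1 was at 0.409 times the level of EMP1 with vehicle and at 0.577 and 0.587 times that level at 5 µM and 10 µM. In GENCODE 29, a GRCh38 annotation, GSG1 overlaps FAM234B on the opposite strand, and the sources used here do not say whether reads were counted by strand. FAM234B was at 11.31, 12.60 and 13.21 FPKM, a difference of 0.14 at 5 µM and 0.21 at 10 µM.

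MUC13 was at 1.13 FPKM in the vehicle library, 5.69 FPKM in the 5 µM library and 12.33 FPKM in the 10 µM library. By plain ratio it was 5.04-fold over vehicle at 5 µM and 10.9-fold at 10 µM, and its differences of 1.65 and 2.65 were the 13th and 4th highest. Of 1176 tested genes with a vehicle level within 2-fold of that of MUC13, 4.08% were called higher at 10 µM, and MUC13 had the highest ratio among them. In GSG1's own range of vehicle levels, 1621 genes, 3.15% were called higher and GSG1 had the 3rd highest ratio. Both ranges reach under 1 FPKM with vehicle, where a gene passes the filter only through a treated library. The filter itself therefore raises these shares.

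MUC1, a mucin of many glandular epithelia, was at 0.90 FPKM in the vehicle library, 0.52 FPKM in the 5 µM library and 0.31 FPKM in the 10 µM library. These values are 0.578 and 0.344 times vehicle, at levels under the filter. The pair was at about the same level with vehicle, where MUC13 was 1.26 times MUC1, and was apart after treatment, at 10.9 times at 5 µM and 39.8 times at 10 µM. Of the 9 genes named MUC with values, which together came to 2.26, 6.37 and 12.93 FPKM, MUC13 made up 1.13 of the 2.26 FPKM in the vehicle library, and its share was 89.3% at 5 µM and 95.4% at 10 µM.

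Of 20 other mucins and mucin-like proteins, 11 had values and 2 passed the filter, with 0 called and medians of 0.24 at 5 µM and 0.45 at 10 µM. Without the filter the medians over the 11 genes were −0.02 and 0.01. Those past the filter were the adhesion molecule gene MCAM and the sialomucin gene CD164. MCAM was at 42.46, 60.42 and 68.80 FPKM and CD164 at 42.45, 42.00 and 49.46 FPKM with vehicle, 5 µM and 10 µM. No gene named MUC in this list passed, so the medians of 0.24 and 0.45 do not describe the mucins as a family. MUC4, a membrane mucin of the airway, and MUC5B and MUC5AC, the secreted airway mucins, were at 0.05 FPKM or lower in each library. Of 28 genes of gut and goblet epithelium, the tissue in which MUC13 is best known, 18 had values, 3 passed the filter and 0 were called. Their medians were −0.07 and 0.14. At 10 µM 1.31% of all genes were called higher and 0.643% lower, so a 0 in lists this short says little. The enzyme genes GALNT5 and GALNT12, which start O-linked sugar chains, read 5.16, 3.74 and 5.58 FPKM and 3.47, 4.48 and 3.91 FPKM. The gut regulators HNF4A and CDX2 and the brush border gene VIL1 were at 0.08 FPKM or lower throughout.

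Partners of membrane mucins at the cell surface were in part well expressed. Of 15 such genes 9 passed the filter and 0 of these were called, with medians of 0.09 at 5 µM and 0.19 at 10 µM. The remaining 6 averaged under 1 FPKM, among them the receptor genes EGFR, listed at 0 at both doses, and ERBB2, at 0.53, 0.69 and 0.73 FPKM. Without the filter 1 of the 15, LGALS3, is called higher at 10 µM. Over all genes past the filter, 1.31% were called higher and 0.643% lower at 10 µM. EZR, the gene of ezrin, which ties membrane proteins to actin, was at 95.61, 102.58 and 103.18 FPKM. Podocalyxin (PODXL) was at 7.05, 9.93 and 13.38 FPKM and the hyaluronan receptor gene CD44 at 8.55, 10.82 and 15.02 FPKM, 1.90-fold and 1.76-fold over vehicle at 10 µM.

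CSTA was at 10.08 FPKM in the vehicle library, 33.72 FPKM in the 5 µM library and 47.80 FPKM in the 10 µM library. It was the highest of the 4 picked genes in each library, and its ratios to vehicle, 3.35 and 4.74, were the lowest of the 4. The differences of 1.65 and 2.14 were both the 14th highest. Of 4787 genes with a vehicle level within 2-fold, 0.836% were called higher at 10 µM, and CSTA had the 4th highest ratio.

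CSTB, whose loss causes a progressive myoclonus epilepsy, was at 53.84, 63.67 and 61.71 FPKM with vehicle, 5 µM and 10 µM. Its differences of 0.24 and 0.19 were matched or passed by 34.6% and 52.0% of all genes. CSTA was at 0.187 times CSTB with vehicle, 0.530 times at 5 µM and 0.775 times at 10 µM. In the sum of both stefins, which was 63.92, 97.39 and 109.51 FPKM, CSTA took 15.8%, 34.6% and 43.6%.

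**Figure D2:**
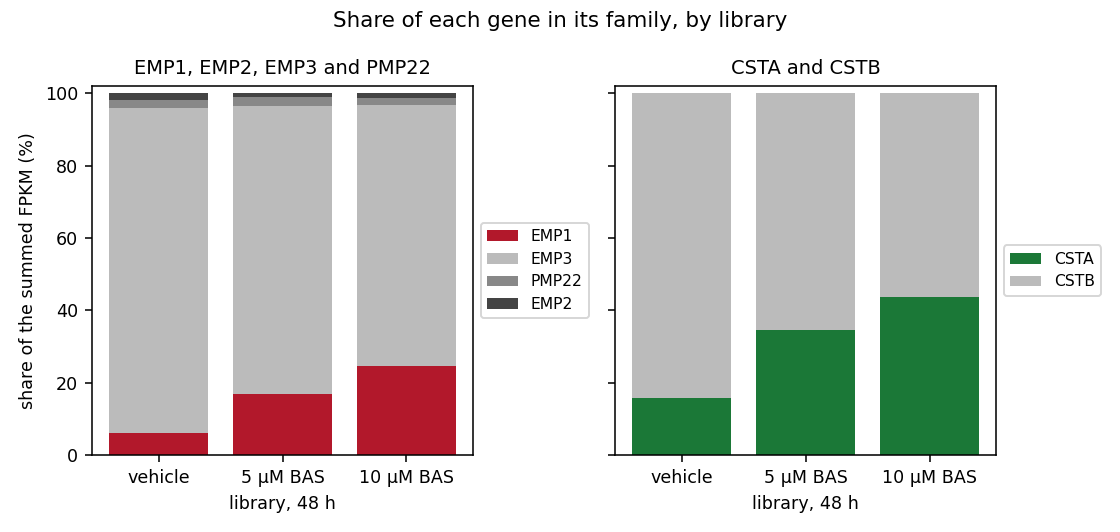
Share of each gene (%) in the summed FPKM of the EMP/PMP22 family (left) and of the stefins (right), in the vehicle, 5 µM BAS and 10 µM BAS library. The EMP1 share is 6.18% with vehicle and 24.6% at 10 µM, and the CSTA share 15.8% and 43.6%.

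Lysosomal protease genes past the filter differed less from vehicle than CSTA. CSTA was picked for its high values, so nothing is read from that contrast. Of 16 cathepsins and related lysosomal proteases, 9 passed the filter and 0 were called, with medians of 0.15 at 5 µM and 0.16 at 10 µM. Over all genes 0.539% were called higher and 0.208% lower at 5 µM, and 1.31% and 0.643% at 10 µM. Beside those shares 0 of 9 is not unusual. The 9 include CTSA, CTSD and LGMN, which are not cysteine cathepsins and are not known as targets of the stefins. The cysteine cathepsin genes CTSB and CTSO read 25.89, 33.00 and 34.29 FPKM and 2.94, 4.56 and 4.12 FPKM. LGMN, the gene of the asparagine-specific protease legumain, was at 35.87, 50.03 and 50.29 FPKM. CSTA was at 0.389 times CTSB with vehicle, 1.02 times at 5 µM and 1.39 times at 10 µM. The secreted cystatin gene CST3 was at 119.01, 133.91 and 149.37 FPKM, a difference of 0.33 at 10 µM, and was the only one of 3 other cystatins with values that passed the filter.

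At 10 µM each of the 4 picked genes stood above its 5 µM level. The step from vehicle to 5 µM made up 58.3% of the full FPKM difference at 10 µM for EMP1, 59.3% for GSG1 and 62.7% for CSTA, and 40.7% for MUC13. On the log2(FPKM + 1) scale the 10 µM minus 5 µM differences were 0.60, 0.60 and 0.49 for EMP1, GSG1 and CSTA, and 0.99 for MUC13. MUC13 was the 6th highest of all genes in this comparison, where 0.0434% of genes were called higher and 0.0434% lower. That is 5 genes each way, against 2 higher and 7 lower after median-ratio scaling and 2 higher and 6 lower after quantile normalization. MUC13 lay just under the limit, so its call turns on the scale: it was 1.10 with a pseudocount of 0.1, 1.05 with 0.5 and 1.03 with a common library total. EMP3, PMP22 and CSTB differed by −0.04, −0.12 and −0.04 between the doses, and EMP2 by 0.18. With a common library total the values of EMP3 and CSTB were 0.00. Both dose comparisons use the same vehicle library.

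**Figure D3:**
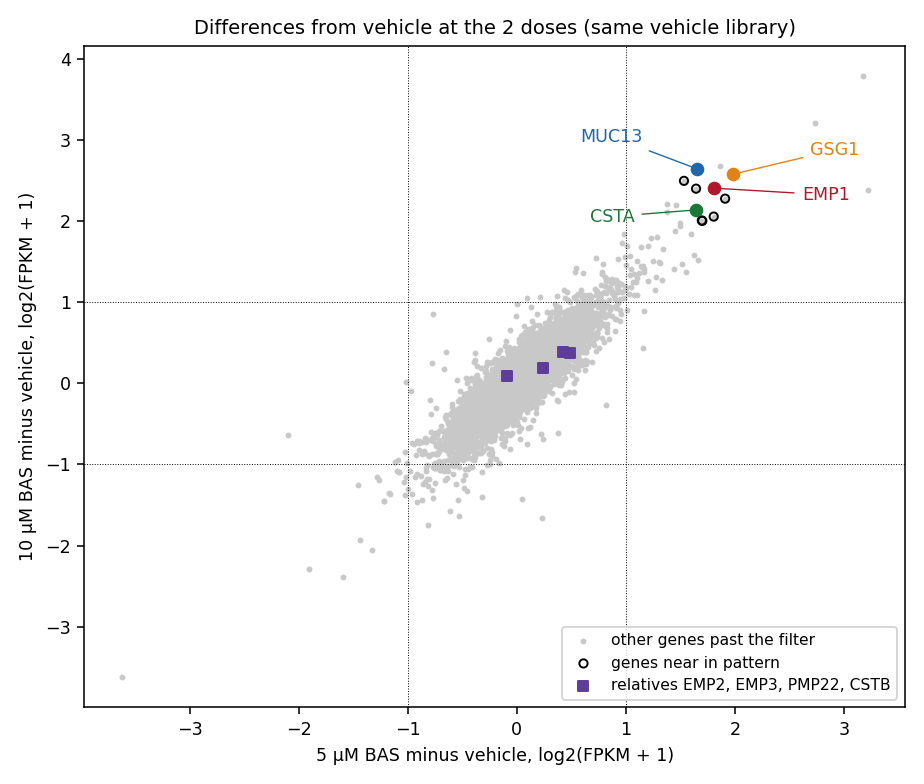
Difference from vehicle in log2(FPKM + 1) at 5 µM BAS (horizontal) and 10 µM BAS (vertical) for the 11512 genes past the filter, with dotted lines at the limits of −1 and 1. EMP1, MUC13, CSTA and GSG1 lie in the upper right beyond 1.6 and 2.1, with genes near them in pattern as open rings, and the relatives (purple squares) lie within 0.5 of zero.

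For each picked gene, genes with a near pair of differences were found by straight-line distance on the log2(FPKM + 1) scale, over 3 libraries and so 2 differences per gene. The picked genes stood near the top, so only other genes near the top could lie near them. Nothing is read from which genes did. EMP1 was nearest to SAT1, which breaks down polyamines, at a distance of 0.02, then to the stress pseudokinase gene TRIB3 at 0.16 and to SH3BGR at 0.17. SAT1 was at 6.75, 26.05 and 39.65 FPKM with vehicle, 5 µM and 10 µM, and its difference was the 9th highest at both doses. SAT1 and TRIB3 were also among the genes near GSG1, at 0.26 and 0.31. TRIB3 was at 19.83, 77.31 and 99.98 FPKM, and its differences were the 5th highest at 5 µM and the 11th highest at 10 µM. MUC13 was nearest to the basal keratin gene KRT14 at 0.19, and SH3BGR was also among the genes near it, at 0.25. By plain ratio KRT14 was 50.2-fold and 122-fold over vehicle, against 5.04-fold and 10.9-fold for MUC13. KRT14 was at 0.04 FPKM with vehicle and passed the filter only through the treated libraries. Its nearness to MUC13 therefore holds on the log2(FPKM + 1) scale and not by plain ratio. CSTA was nearest to the apolipoprotein gene APOC1 at 0.14, to the stress transcription factor gene DDIT3 at 0.15 and to JDP2, an AP-1 family gene, at 0.18. APOC1 was at 6.31, 22.70 and 28.40 FPKM and JDP2 at 1.96, 9.35 and 11.31 FPKM. SH3BGR and APOC1 share 74.1% and 40.5% of their 50-base sequences with another gene, so their values are uncertain.

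Squamous genes, the setting in which CSTA is best known, were above vehicle in part. Of 37 genes of the cornified envelope and squamous epithelium, 23 had values and 8 passed the filter. Of these 8, 2 were called higher at 5 µM and 3 at 10 µM, and 0 lower, with medians of 0.54 and 0.70 against 0.02 and 0.05 over all genes. Among all genes, 0.539% were called higher at 5 µM and 1.31% at 10 µM. Over the 23 genes without the filter the medians were 0.05 and 0.03, and with the filter at a mean of 5 FPKM 0 genes were called. KRT14 was at 0.04, 2.01 and 4.87 FPKM and KRT16, a keratin of stressed epidermis, at 0.23, 2.20 and 4.71 FPKM with vehicle, 5 µM and 10 µM. PKP1, a desmosome plaque gene, was at 0.29, 1.44 and 2.05 FPKM. KRT14 and KRT16 share 23.8% and 22.0% of their 50-base sequences with other genes. A gene near 0 with vehicle passes the filter only through the treated libraries, so these counts are no support for a shift of the list.

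The other genes of that list varied. The cornified envelope gene CNFN was at 11.99, 17.80 and 23.50 FPKM, a difference of 0.92 at 10 µM that lay just under the limit, and S100A2 was at 171.94, 251.15 and 241.03 FPKM. The squamous master regulator gene TP63 was at 4.56, 5.54 and 5.43 FPKM. Among the genes under the filter, the keratin gene KRT17 was at 0.13, 0.59 and 1.04 FPKM, S100A9 at 0.09, 0.54 and 1.11 FPKM and TGM1, a crosslinking enzyme of the cornified envelope, at 0.20, 0.52 and 0.62 FPKM, each above vehicle at both doses. S100A14 was at 0.49, 0.05 and 0.05 FPKM. KRT5, the usual partner of KRT14, was at 0.15, 0.13 and 0.00 FPKM, and the desmoplakin gene DSP was listed at 0 at both doses and at 0.05 FPKM in the vehicle library.

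General epithelial genes lay on both sides of vehicle. Of 33 such genes 9 passed the filter, of which 2 were called higher and 2 lower at 5 µM, and 3 higher and 2 lower at 10 µM. Among all genes, 0.539% were higher and 0.208% lower at 5 µM, and 1.31% and 0.643% at 10 µM. The medians of the 9 genes were 0.23 and 0.48. These medians depended on the setting: they were −0.05 at 5 µM and −0.06 at 10 µM without the filter, 0.60 and 1.10 with the filter at a mean of 5 FPKM, and 0.42 and 0.82 with a pseudocount of 0.1. KRT7, a keratin of simple epithelium, was at 5.74, 14.77 and 22.26 FPKM, the splicing regulator gene ESRP1 at 0.23, 1.64 and 2.49 FPKM and the claudin gene CLDN4 at 0.58, 1.47 and 2.33 FPKM. The keratin genes KRT8 and KRT18, which form one filament pair, read 4.81, 1.12 and 1.44 FPKM and 2.83, 0.60 and 0.68 FPKM. KRT18 shares 28.9% of its 50-base sequences with other genes. ESRP1 and CLDN4 passed the filter only through the treated libraries, and KRT18 only through the vehicle library. The counts are therefore no support for a shift of this list. The defining epithelial genes EPCAM and CDH1 read 0.24, 0.03 and 0.03 FPKM and 0.61, 0.28 and 0.27 FPKM, and GRHL2, which sustains epithelial identity, was listed at 0 at both doses and at 0.06 FPKM in the vehicle library.

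**Figure D4:**
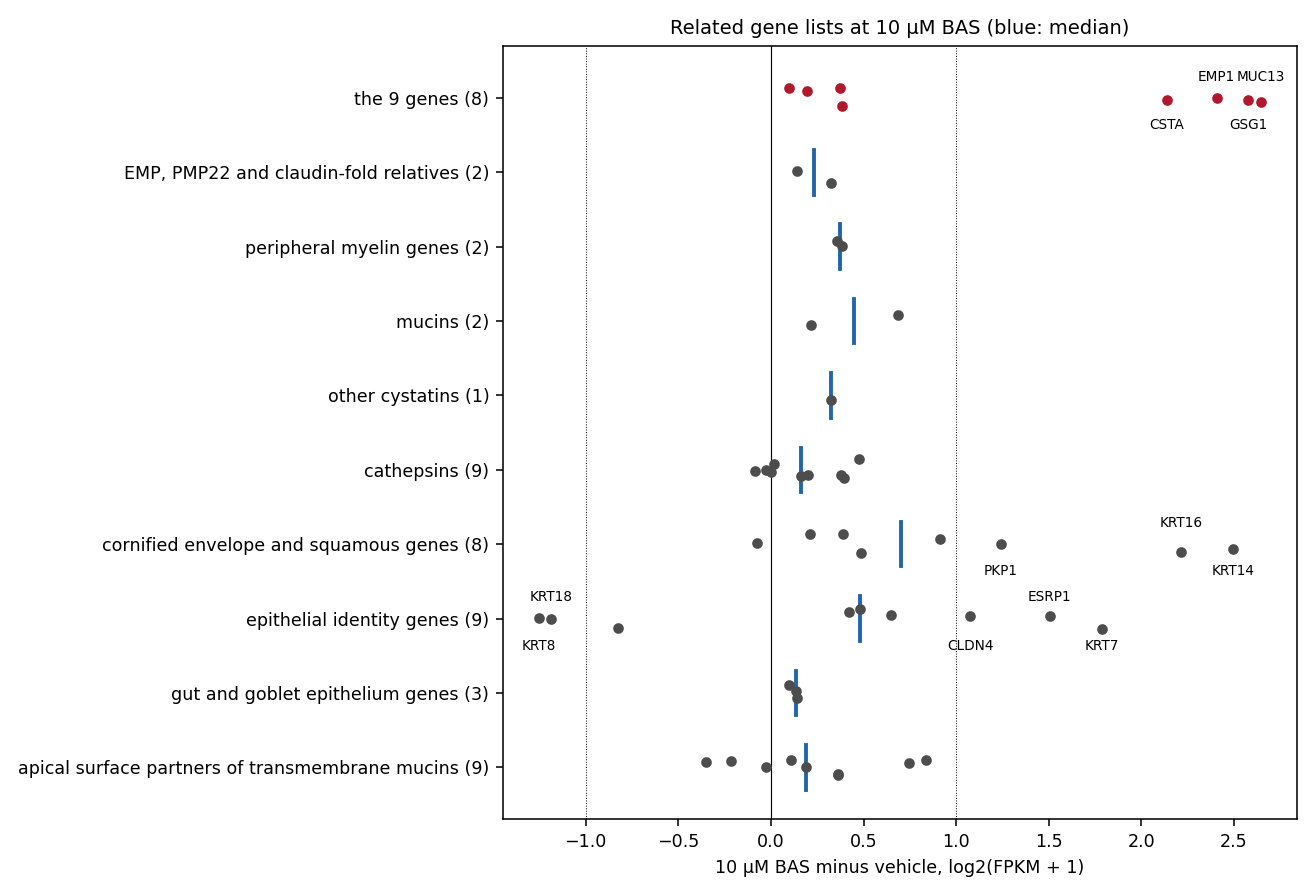
Difference of 10 µM BAS minus vehicle in log2(FPKM + 1) for each gene past the filter, with the 9 genes in red at the top (8 past the filter) and 9 related lists in grey below, the number past the filter in parentheses and the list median as a blue bar. Dotted lines mark the limits of −1 and 1, and the genes beyond them are named, KRT8 and KRT18 on the left and 6 list genes on the right.

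EMP1 and GSG1 are neighbours on chromosome 12, next to each other in the order of protein-coding genes of the RefSeq table (GRCh38.p14). MUC13 and CSTA both lie on chromosome 3. On the GSG1 side the next genes were FAM234B and HEBP1, which binds heme, at 20.87, 23.64 and 23.27 FPKM with vehicle, 5 µM and 10 µM. On the EMP1 side they were the glutamate receptor gene GRIN2B, listed at 0 in each library, and the chromatin gene ATF7IP, at 10.32, 7.94 and 10.25 FPKM. None of these was called, GRIN2B being under the filter, so EMP1 and GSG1 were the only called genes in that row of 6. Further along on the GSG1 side, GPRC5A was called higher at both doses and is described below.

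Beside MUC13, the integrin gene ITGB5 was at 12.55, 19.00 and 22.88 FPKM, HEG1, a mucin-like receptor, at 16.43, 21.06 and 26.02 FPKM and the transporter gene SLC12A8 at 1.59, 3.12 and 4.35 FPKM. SLC12A8 was called higher at 10 µM, with a difference of 1.05. UMPS, an enzyme gene of pyrimidine synthesis, was at 13.59, 12.56 and 14.13 FPKM. The nearest genes with values beside CSTA were SLC15A2 and ILDR1, at 0.22 FPKM or lower and under the filter, and FAM162A and WDR5B. FAM162A was at 62.54, 61.10 and 52.11 FPKM and WDR5B at 3.48, 3.03 and 2.50 FPKM, and neither was called.

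**Figure D5:**
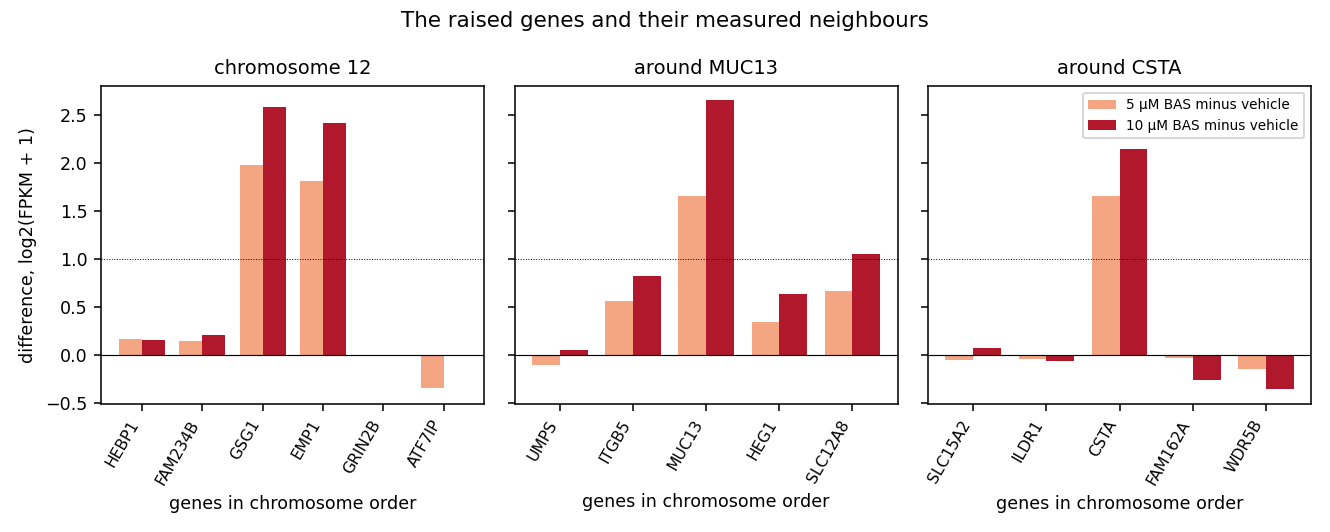
Difference from vehicle in log2(FPKM + 1) at 5 µM (light bars) and 10 µM (dark bars) for the picked genes and up to 2 genes with values on each side, in chromosome order and with equal spacing. GSG1 and EMP1 stand side by side at 2.58 and 2.41 at 10 µM, MUC13 at 2.65 and CSTA at 2.14, and SLC12A8 beside MUC13 is at 1.05.

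Neuroendocrine markers were present in each library, which are labelled as a small cell lung cancer line. Of 16 markers of that tumour and its neuroendocrine identity, 14 had values and 12 passed the filter. The 14 summed to 544.36, 577.67 and 648.14 FPKM with vehicle, 5 µM and 10 µM. At 10 µM 9 of the 12 lay above vehicle and 3 below, with medians of 0.18 at 5 µM and 0.41 at 10 µM. The medians over all genes were 0.02 and 0.05. The markers are described and were not tested as a set. NEUROD1, the lineage factor of one subtype of this cancer, was at 104.96, 93.15 and 91.62 FPKM. POU2F3 and YAP1, which mark other subtypes, were at 0.07 FPKM or lower. CHGA and UCHL1 were called higher at 10 µM, at 1.91, 4.0 and 6.41 FPKM and at 82.21, 131.19 and 176.51 FPKM. Over all genes 1.31% were called higher at that dose. The difference of UCHL1 alone between vehicle and 10 µM was close to that of the whole sum. POU4F1 and SYP lay below vehicle at both doses, at 101.29, 69.87 and 65.66 FPKM and at 17.3, 12.77 and 13.25 FPKM. Of 20 markers of other cells, 17 had values and summed to 517.96, 564.52 and 534.42 FPKM, most of it from the collagen genes COL1A2 (389.39, 412.40 and 370.87 FPKM) and COL1A1 and the cadherin gene CDH5. The leukocyte gene PTPRC was at 1.03, 0.92 and 1.09 FPKM and the surfactant gene SFTPC at 0.22, 0.00 and 0.16 FPKM. The hemoglobin gene HBA1, which has a near-identical copy, was under the filter at 0.00, 0.43 and 1.05 FPKM, and without the filter it is called higher at 10 µM (1.04). CD68 was called higher at 10 µM (2.85, 6.05 and 7.34 FPKM), and 92.6% of its 50-base sequences occur in another gene. Of these 17, 5 passed the filter, and 2 were listed at 0 in at least 1 library. The part of other cell types in the differences of EMP1, MUC13, CSTA and GSG1 was not tested.

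Of the 50-base sequences of the longest coding transcript, matched by symbol in GENCODE 29, 0% were found in another gene for EMP1, EMP3, PMP22, MUC13, MUC1, CSTA and CSTB, 1.45% for GSG1 and 2.47% for EMP2. At that length the relatives do not share sequence with each other beyond those percentages. The libraries summed to 487923, 507342 and 492102 FPKM with vehicle, 5 µM and 10 µM.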

How the data were processed

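Total RNA of H446 cells was made into RNA-seq libraries and read on an MGISEQ2000, single-end, 50 bases, per the labels' protocols. Per the submitters' processing notes, the tools were Trim Galore, Bowtie2, BWA, Cuffdiff and Cufflinks, and the build hg19. The sources used here give no versions, annotation, strand setting or scaling of the libraries to each other. Per the file headers, the authors deposited FPKM, to 2 decimals and without counts, so neither depth nor counting error is known. Each file holds 16795 rows for 16793 symbols, and the 2 symbols in more than 1 row were summed.

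From these, differences of log2(FPKM + 1) were computed for 11512 genes (mean of 1 FPKM or more) and called from an absolute value of 1 upwards, as a single library per group gives no test. The design allowed for FPKM or RPKM, which are treated alike. The 9 genes, the 11 gene lists and the limits were chosen with earlier results of these data known. Named list genes are the called ones (at most 4 per list) or else the 2 furthest from vehicle. CLDN4, CNFN, S100A2, TP63, KRT5, DSP, EPCAM, CDH1, GRHL2, CTSB, EZR, MBP, MUC4, MUC5B, MUC5AC, HNF4A, CDX2, VIL1, NEUROD1, POU4F1, SYP, COL1A2, COL1A1, CDH5, PTPRC, SFTPC, HBA1, POU2F3, YAP1, CCDC114, KRT17, S100A9, TGM1, S100A14, EGFR, ERBB2, CTSA, CTSD, GPRC5A and LGALS3 lie outside that rule, picked once their values had been seen. The 3 nearest genes in pattern were taken for each picked gene, and results that are not reported here were left out of the text and figures. Promoters came from RefSeq (GRCh38.p14) and transcripts from GENCODE 29, matched by symbol. The calling step was run on simulated data with large planted shifts and a noise set by hand. That run checks the code alone and gives no estimate of the spread in these libraries. The software was pandas 2.3.3, numpy 2.4.6 and matplotlib 3.10.9 under Python 3.11.15.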

Additional observations from a re-analysis of the deposited data

How the results depend on the processing

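No paired analysis was possible because there was 1 library per group. For the same reason no library could be left out. Calls of the 4 picked genes against vehicle held under the pseudocounts, filters and scalings tried, with the differences at 10 µM between 2.34 and 2.67 for EMP1, 2.59 and 3.34 for MUC13, 2.08 and 2.23 for CSTA and 2.51 and 3.14 for GSG1. At a fold limit of 4, which applies to FPKM + 1 and not to the plain ratio, the 5 µM calls of EMP1 (1.81), MUC13 (1.65), CSTA (1.65) and GSG1 (1.98) were lost, leaving 0 of the 9 genes called there. Between the doses, MUC13 was called with a pseudocount of 0.1 (1.10) or 0.5 (1.05) and with a common total (1.03), so that 1 of the 9 genes was called higher in each case. At a fold limit of 1.5, MUC13 (0.99), EMP1 (0.60) and GSG1 (0.60) were called, 3 of the 9 genes. EMP2, PMP22 and MUC1 have no value with the filter at a mean of 5 FPKM.

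The counts over all genes depend on these choices. Here and in the next paragraph, counts are listed mainly where they moved more than 1.5-fold from the main setting, or from 0 or to 0. With a pseudocount of 0.1, 143 genes were called higher and 53 lower at 5 µM, 273 and 145 at 10 µM, and 23 and 18 between the doses. With a pseudocount of 0.5, 16 were higher and 11 lower between the doses. Without a filter 8 were higher between the doses. With the filter at 5 FPKM, 13 were lower at 5 µM, 95 higher and 42 lower at 10 µM, and 2 higher and 2 lower between the doses. At a fold limit of 1.5 the counts were 346 and 184 at 5 µM, 695 and 396 at 10 µM, and 50 and 47 between the doses, and at a limit of 4 they were 3 and 2, 18 and 4, and 0 and 0. Median-ratio scaling and quantile normalization each gave 2 higher between the doses.

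Over the genes of the 11 lists together, 4 were called higher and 2 lower at 5 µM, 9 and 2 at 10 µM, and 0 between the doses. With a pseudocount of 0.1 the higher counts were 8 at 5 µM and 2 between the doses, and with 0.5 there was 1 between the doses, as there was without a filter. The filter at 5 FPKM left 1 higher and 0 lower at 5 µM, and 3 higher and 0 lower at 10 µM. A fold limit of 1.5 gave 9 higher at 5 µM, 15 higher and 4 lower at 10 µM, and 2 higher between the doses. A limit of 4 gave 0 and 0 at 5 µM and 2 and 0 at 10 µM. A fold limit or filter changes the counts by construction, and a smaller pseudocount can only widen each difference. For the other settings the cause was not tested. Leaving out the 2 duplicated symbols changed none of the counts over all genes. No scaling moved the median of all genes by more than 0.1.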

Other observations

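GPRC5A, a retinoic acid-induced membrane receptor gene of lung epithelium, lies on the same stretch of chromosome 12, with 3 protein-coding genes between it and GSG1. It was at 1.30 FPKM in the vehicle library, 3.62 FPKM in the 5 µM library and 6.42 FPKM in the 10 µM library, 2.78-fold and 4.94-fold over vehicle, and was called higher at both doses. Of the 3 genes between it and GSG1, HEBP1 and FAM234B were not called, and the remaining gene is not described here.

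LGALS3, the gene of galectin-3, which binds the sugar chains of mucins and other surface proteins, was at 0.05 FPKM in the vehicle library, 0.25 FPKM in the 5 µM library and 2.22 FPKM in the 10 µM library. Its mean of 0.840 FPKM lay under the filter. The 10 µM library stood above the other two, with a difference of 1.62 from vehicle and of 1.37 from 5 µM. GPRC5A and LGALS3 were chosen after their values were seen.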
